A study of Zea mays with 27 samples.

Results

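Translation elongation factor 1-alpha was measured through 2 maize genes, LOC542581 (EF1A) and LOC542620 (elfa3), on 27 arrays. The members are every probe that the platform's gene table assigns, by gene identifier, to 1 of these genes and to no other gene. No measured value entered that rule, but the genes were chosen with earlier results of these data known. The members were 24 probes of EF1A and 7 of elfa3. This makes 31 of the 1607 probes in that table with a single gene, or 1.93%. The arrays carried 18303 probes with a value on every array. Probes are named here by their spot number.

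Elongation factor 1-alpha is the GTP-binding protein that brings each aminoacyl-tRNA to the A site of the cytosolic ribosome, and in plants it also binds actin filaments. It is among the most abundant proteins of growing plant cells. Plant genomes hold a small family of genes for it whose coding sequences are very alike. Its transcripts are commonly used as internal references in quantitative PCR of plant tissue, on the assumption that their level changes little from sample to sample. How steady their probes were here, and how far they moved together, are the questions of this section.

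The material was the shoot (all tissue above ground) of maize seedlings aged 14 days. There were 3 genotypes, inbred B73, inbred Mo17 and their F1 hybrid with Mo17 as the mother, with 6 seedlings pooled per genotype and replication. The 9 replications kept gave 3 arrays each, on which the genotypes were hybridised in pairs in a loop, and the series title calls this the low scan. The labels used here give the genotype of a single channel, F1 in Cy3 on array S1, so no array was placed in a group. The values below therefore describe steadiness over arrays without a comparison of genotypes or a test, and each array's value is a ratio between 2 genotypes rather than a level.

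A value is the log2 ratio of the 2 channels at a spot after the median of its array was subtracted, so that 0 is the middle of the array. The numerator channel is not stated, and values are accordingly called above or below the array median and never higher in a genotype. The spread of a probe is the 90th minus the 10th percentile of its 27 values, and a spread of 1 is 2-fold. On arrays S1 to S15 at least 2% of spots shared 1 most frequent value, while on S16 to S27 they did not, so spreads are also given within each of these sets where they differ by over 1.5 times, as they did for 12 of the 31 members. The number of arrays limits the precision of each spread, and arrays of 1 loop share RNA, so they are not 27 independent samples.

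Set against all one-gene probes, those of EF1A were of about typical spread and those of elfa3 lay toward the steady end, but both places depend on what they are set against. The median spread was 1.12 for the 24 EF1A probes and 0.86 for the 7 elfa3 probes, against 1.17 for all 1607 one-gene probes. These medians lay at percentiles 45.7 and 20.97 of the one-gene spreads. The background weighs genes by their probes, and MNB1b alone supplies 221 of the 1607. Without that gene the percentiles were 40.0 and 16.1, among all 18303 probes 28.4 and 11.8, and among the median spreads of the 532 genes 28.4 and 8.08. EF1A was thus below the middle of each of these backgrounds, by little in the first and by more in the others.

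A spread of at least 2-fold was reached by 17 of the 31 members (54.8%), beside 65.0% of all one-gene probes. Other cutoffs gave 7 of 31 members at a spread of 1.5 (beside 29.7%) and 3 by an interquartile range of 1 (beside 14.6%). Had the deposited values been in log2 units already, 7 members would reach 2-fold, beside 32.2%. Had they been 2 times the natural log ratio, 2 members would, beside 18.5%. The distances between repeated values, given with the processing, fit that last reading better than the one used. Among all 18303 probes, most of them unnamed, 79.2% reached 2-fold.

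By gene, the members at 2-fold were 15 of 24 probes of EF1A (62.5%, close to that background) and 2 of 7 probes of elfa3 (28.6%). At 4-fold the numbers were 1 probe of each gene, beside 18.5% of all one-gene probes.

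The order of the genes held within both sets of arrays. Over S1 to S15 the median spreads were 0.98 for EF1A, 0.76 for elfa3 and 1.03 for all one-gene probes. Over S16 to S27 they were 1.01, 0.76 and 1.12.

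**Figure D1:**
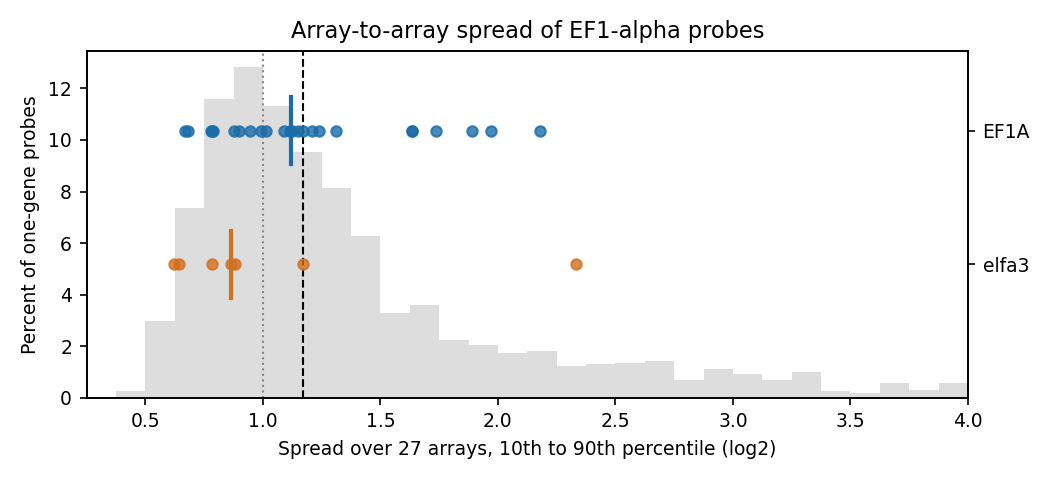
Spread over 27 arrays (10th to 90th percentile, log2, x axis) of each EF1A probe (blue points) and each elfa3 probe (orange points), above the distribution of all 1607 one-gene probes (grey bars, percent of probes on the left axis). The dotted line marks 2-fold, the dashed line the median of all one-gene probes (1.17), and the short coloured lines the median of each gene. The height of the points carries no value. The axis ends at 4, and 54 one-gene probes lie beyond it. The 5 steadiest elfa3 probes sit to the left of the dotted line, while EF1A probes run from 0.67 to 2.18.

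EF1A is the gene with more probes, and these ranged from among the steadiest one-gene probes to well above their upper quartile. Of its 24 probes, 14 had a spread below the one-gene median, 6 fell below the lower quartile of one-gene probes and 4 above the upper quartile. The middle of the range, from the lower to the upper quartile, was 0.89 to 1.39.

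At the steady end, probe 9775 had a spread of 0.67, with a lowest value of -1.15 on S19, a median of -0.15 and a highest value of 0.60 on S23. Its spread was 0.46 over S1 to S15 and 0.99 over S16 to S27. Probe 3247 had a spread of 0.68 and ran from -0.57 on S21 through a median of -0.10 to 0.63 on S15. Both lay below the array median on 20 of 27 arrays. Probes 12168, 10989, 6123, 8454, 2816, 6495 and 10539 followed, with spreads of 0.78 to 0.99. Of these, probe 6123 was wider over S1 to S15 (0.97) than over S16 to S27 (0.44), while probe 8454 (0.65 and 1.04) and probe 6495 (0.59 and 0.95) were the other way round.

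Probes 9321, 440, 6378, 1298, 8701, 12597, 4152, 2888 and 8846 had spreads of 1.01 to 1.31. Probe 440 had 1.47 over S1 to S15 and 0.86 over S16 to S27, and probe 8701 had 0.70 and 1.08. Within this middle range 2 probes carried a single value far from the rest. Probe 6378 ran from -1.22 on S24 through a median of -0.17 to 5.23 on S27, and its spread of 1.11 hardly registers that 1 array. Its spread was 1.20 over S1 to S15 and 0.39 over S16 to S27. Probe 8846 ran from -1.44 on S27 through a median of 0.11 to 2.39 on S13.

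The variable end of EF1A held 6 probes. Probes 5293, 5974 and 2751 had spreads of 1.63, 1.73 and 1.89, and they are the linked set described with the correlations. Probe 11243 had a spread of 1.63 and ran from -1.14 on S15 through 0.13 to 2.47 on S20, with 1.03 over S1 to S15 and 2.26 over S16 to S27. Probe 3796 had a spread of 1.97, from -1.14 on S3 through 0.26 to 1.67 on S11, and it lay above the array median on 19 of 27 arrays. Its spread was 2.46 over S1 to S15 and 1.36 over S16 to S27.

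The most variable EF1A probe, 4473, differed from the others in kind. It sat exactly at the most frequent value of its array on 16 arrays, which no other member did on any array, although 183 of the 1607 one-gene probes did so on at least 1. Its values ran from -3.11 on S27 through a median of 0.00 to 7.75 on S21. The overall spread of 2.18 combined 0.34 over S1 to S15 with 4.76 over S16 to S27. On S2 to S7, S9 to S11 and S14 the probe read 0.00, the array median itself. The 0.34 therefore says little about how steady it was.

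The second gene, elfa3, had 5 of its 7 probes below the lower quartile of one-gene probes. Probe 10925 had the smallest spread of any member, 0.62, from -0.52 on S10 through 0.06 to 0.61 on S8. Probe 6542 had a spread of 0.64, from -0.53 on S13 through -0.10 to 0.71 on S23. Probe 5315 had a spread of 0.78, from -0.41 on S6 through 0.17 to 0.78 on S24, with 0.52 over S1 to S15 and 0.90 over S16 to S27. Each of these 3 probes stayed within 1 log2 unit of the array median on every array.

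Probes 11768 and 5804 were nearly as steady by spread, at 0.86 and 0.88, but each had its lowest value on S19. That value was -2.13 for probe 11768, whose median was -0.10 and highest value 0.50 on S17. For probe 5804 it was -1.18, with a median of -0.07 and a highest value of 0.79 on S15. Probe 8221, with a spread of 1.17, ran from -0.81 on S19 through 0.10 to 1.58 on S6.

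The remaining elfa3 probe, 18594, was the most variable of all 31 members, with a spread of 2.33. It lay below the array median on 21 of 27 arrays, with a median of -0.56 and a highest value of 0.39 on S13. Its 3 lowest values were -9.82 on S1, -4.94 on S2 and -3.02 on S15. The spread was 4.18 over S1 to S15 and 0.76 over S16 to S27, and it was 1.38 when each block of 400 consecutive spots was centred on its own median. The part that position on the array had in these values was not tested.

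Values at least 4-fold from the array median were scarce among the members. EF1A had 8 such values of 648 (1.23%) and elfa3 4 of 189 (2.12%), beside 3.8% of the 43389 values of one-gene probes. Probe 4473 held 5 of the 8, on S19, S21, S23, S25 and S27. The other 3 were the single values of probes 6378, 8846 and 11243 given above. In elfa3, probe 18594 held 3 of the 4 and probe 11768 the other, on S19.

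Taken as the median of its probes on each array, each gene stayed near the middle of the array. The EF1A median ran from -0.42 (S27 and S24) through -0.07 to 0.50 (S15), with a spread of 0.52, which is 1.43-fold. It was within 1.25-fold of the array median on 21 of 27 arrays. The elfa3 median ran from -0.56 (S19) through -0.05 to 0.57 (S23), with a spread of 0.50 (1.41-fold), and was within 1.25-fold on 24 of 27 arrays. Each gene median lay above the array median on 10 arrays and below it on 17.

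A median over many probes varies less than a median over few or a single probe, so these spreads were set beside those of genes with at least as many probes as elfa3. The numbers of probes in that group still differ, and a gene with 24 probes is favoured over one with 7. Among the 44 genes with at least 7 one-gene probes, ordered from the steadiest, elfa3 was number 11 and EF1A number 12 by the spread of the probe median, whose middle over the 44 genes was 0.61. By the median spread of single probes in the same 44 genes, elfa3 was number 6 and EF1A number 26.

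The side of the array median on which EF1A probes lay was also counted on single arrays. The number of its 24 probes above the array median ran from 5 to 19, and at least 18 lay on 1 side on 5 arrays. No such count was made for other genes, so how usual this is was not tested. S15 was the array where EF1A stood highest, with 18 of 24 probes above and a probe median of 0.50. The median of all one-gene probes was 0.23 on that array, so that they were above the array median there too. On S27, where 5 of 24 EF1A probes were above, the one-gene median was 0.00. None of the 7 elfa3 probes was above the array median on S10 and S22, and 6 of 7 were above on S15.

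The typical distance of a single value from its array median was 0.27 for EF1A, 0.24 for elfa3 and 0.30 for one-gene probes. Within arrays, the EF1A figure was below that of one-gene probes on 16 of 27 arrays and the elfa3 figure on 20 of 27.

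**Figure D2:**
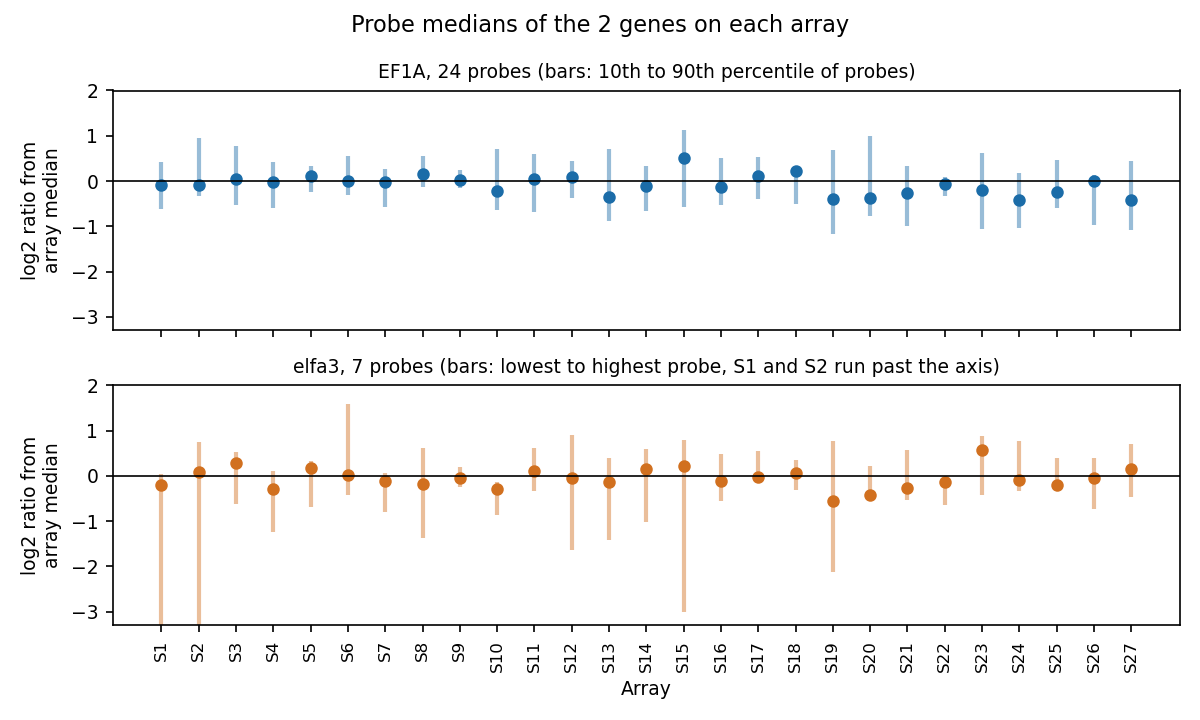
Log2 ratio from the array median (y axis) on each of the 27 arrays (x axis) for EF1A (upper panel) and elfa3 (lower panel). Points are the median over the probes of the gene. Bars span the 10th to 90th percentile of the 24 EF1A probes, and the lowest to highest of the 7 elfa3 probes, of which the bars on S1 (down to -9.82) and S2 (down to -4.94) run past the axis. The points lie between -0.56 and 0.57 while the bars are longer than that on many arrays.

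The genes followed each other in part, and how closely depended on the centring. Their probe medians had the same sign on 17 of 27 arrays and opposite signs on 10. Each median alone lay below 0 on 17 arrays, and no such count was made for other pairs of genes. How usual the shared sign is was therefore not tested. The typical distance between the 2 probe medians was 0.14, and the largest was 0.78, on S23, where EF1A was at -0.21 and elfa3 at 0.57. Over the 27 arrays Pearson's r was 0.388 and Spearman's rho 0.429. Over the 146 other genes with at least 3 probes, the median r was 0.169 with EF1A and 0.128 with elfa3. By r, elfa3 was number 38 for EF1A, and EF1A number 15 for elfa3. Without S27 and S15, the arrays where EF1A lay farthest from its median, r of the 2 gene medians was 0.416. Leaving out 1 array at a time gave r from 0.304 (without S19) to 0.535 (without S23). With block centring r was 0.550 and with the values as deposited, without centring, it was 0.608. Without centring both medians carry the same offset of each array, which by itself can raise r. No r without centring is given for other genes, so 0.608 is not read as closer agreement. With each array centred on its median, r was 0.472 over S1 to S15 and 0.277 over S16 to S27. No p-value accompanies these or later correlations, since arrays of 1 loop share RNA and all arrays share the spot layout.

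Agreement between single probes of the same gene was also weak. Over the 276 pairs of EF1A probes the mean r was 0.099, with a range of -0.655 to 0.963. Over the 21 pairs of elfa3 probes it was 0.158, with a range of -0.346 to 0.801. Over the 168 pairs with 1 probe of each gene it was 0.093, with a range of -0.589 to 0.883. The mean over all 1290421 pairs of one-gene probes was 0.023. These means were small in each set of arrays, and their order changed. Over S1 to S15 the mean was 0.092 within EF1A, 0.241 within elfa3 and 0.173 between the genes, beside 0.040 for all one-gene pairs. Over S16 to S27 the same means were 0.070, 0.134 and 0.013, beside 0.006.

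Pairs with r of at least 0.5 made up 15.6% of EF1A pairs (43 pairs), 9.52% of elfa3 pairs (2 pairs) and 12.5% of pairs between the genes (21 pairs), beside 5.21% of all one-gene pairs. At r of at least 0.8 there were 8 EF1A pairs (2.9%) and 4 between the genes (2.38%), beside 0.34%, and 1 elfa3 pair. Opposed pairs, with r of -0.5 or lower, were 9 in EF1A (3.26%), 4 between the genes (2.38%) and 0 in elfa3, beside 2.45% of one-gene pairs.

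**Figure D3:**
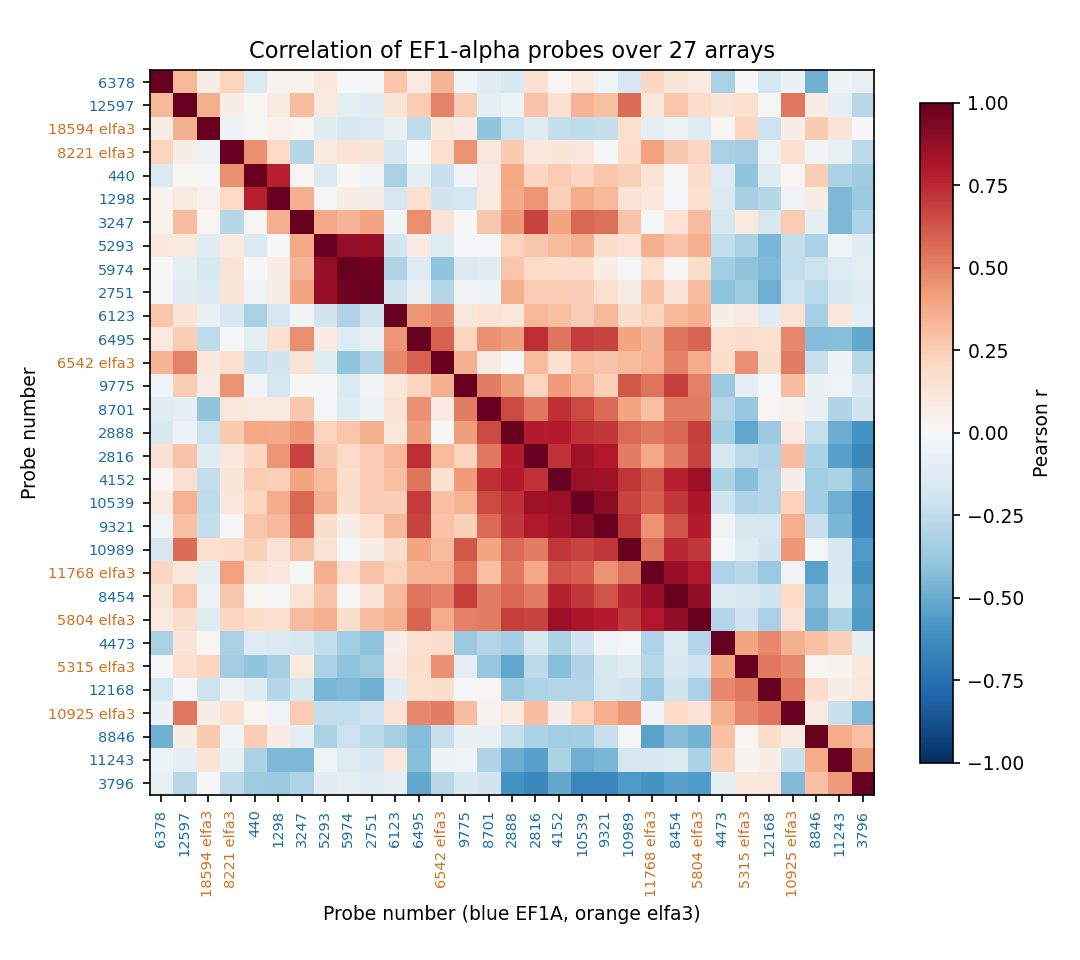
Pearson r over 27 arrays for each pair of the 31 probes, with probe numbers on both axes (blue EF1A, orange elfa3) in an order that puts like probes together. Red is a positive and blue a negative r. The large red block mixes probes of both genes, the small dark block is probes 5293, 5974 and 2751, and the bottom row is probe 3796, whose r with probe 10539 is -0.655.

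The agreement was concentrated in groups of probes, which were picked out after the values were seen and are described without a test. Joining every pair with r of at least 0.8 left 21 probes joined to none and put the other 10 into 2 sets. The first set held 5 EF1A probes (2816, 4152, 8454, 9321 and 10539) and 2 elfa3 probes (5804 and 11768). Their pairwise r ran from 0.387 to 0.901, and from 0.601 to 0.914 after block centring. The mean over the 21 pairs was 0.831 over S1 to S15 (range 0.671 to 0.947) and 0.634 over S16 to S27 (range 0.093 to 0.946), where the lowest was the pair of probes 2816 and 11768. The 7 probes lay in 7 different blocks of the array. Their individual spreads were 0.86 to 1.21.

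The median of this first set ran from -1.18 on S19 to 0.79 on S15, with a spread of 0.93. Its 10 pairs across the genes had a mean r of 0.694 (range 0.387 to 0.883), and its 10 pairs within EF1A had 0.760 (range 0.523 to 0.901). The 4 pairs across the genes with r of at least 0.8 were 3 of probe 5804 and the pair of probes 8454 and 11768, at 0.873. Probe 5804 of elfa3 had r of 0.883 with probe 8454, 0.859 with 4152 and 0.806 with 10539, all of EF1A, and 0.801 with probe 11768 of its own gene. Its r with the EF1A probe median was 0.796, while with the median of the other elfa3 probes it was 0.313. EF1A probes 2888, 10989, 8701 and 6495 followed the set more loosely, at r of 0.783, 0.767, 0.652 and 0.634.

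The second set was the 3 EF1A probes 2751, 5293 and 5974, with pairwise r of 0.868 to 0.963. The r stayed at 0.888 to 0.960 over S1 to S15 and at 0.799 to 0.968 over S16 to S27, and the probes lay in 3 different blocks. On S2 probes 5974, 2751 and 5293 read 1.51, 1.28 and 1.20. On S23 they read -1.32, -1.26 and -0.87, and on S26 -1.01, -1.06 and -0.88. The median of the 3 had a spread of 1.73, wider than that of the first set.

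The second set did not track the first, with r of 0.281 for probe 2751, 0.368 for 5293 and 0.177 for 5974 against the first set's median. On S15 both were above the array median, on S2 and S25 the second set was above and the first below. Probes 440 and 1298 of EF1A formed a further pair with r of 0.780 (rho 0.621), both with their highest value on S6.

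Probe 3796 of EF1A moved against the first set, with r of -0.650 to its median. This was not particular to that probe. Among one-gene probes of other genes, r with the same median was -0.794 for probe 15900 of LOC100037813. It was -0.768 for probe 1646 of LOC542323, and the share of opposed pairs given above was near that of all one-gene pairs. The r of probe 3796 was -0.655 with probe 10539 (-0.746 over S1 to S15 and -0.674 over S16 to S27). It was -0.650 with probe 9321 and -0.589 with probe 11768 of elfa3. Probes 8846 and 11243 of EF1A had r of -0.412 and -0.380 with the first set, and probe 5315 of elfa3 had -0.325.

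**Figure D4:**
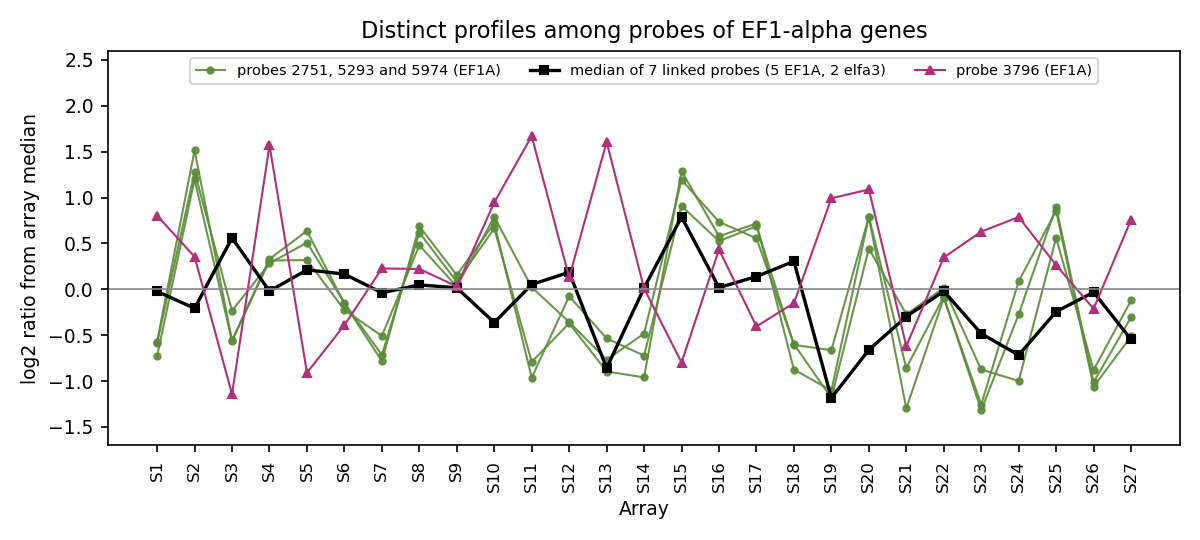
Log2 ratio from the array median (y axis) on the 27 arrays (x axis) for the 3 EF1A probes of the second set (green circles), the median of the 7 probes of the first set (black squares) and EF1A probe 3796 (magenta triangles). Lines join the points of a series for the eye, since the arrays have no order. The green lines run together from 1.51 on S2 to -1.32 on S23, and the magenta points mostly lie opposite to the black ones.

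Probes of other genes were also set against the median profile of each set. Of the 1576 other one-gene probes, 9 had r of at least 0.8 with the median of the first set and 0 did so with that of the second. Among all pairs of one-gene probes 0.34% reached 0.8, but those are pairs of single probes rather than a probe with a set median. Whether these counts are low or high was not tested, since none were made for other sets of probes. Closest to the first set were probe 7341 of the alpha-tubulin gene TUA1 (r 0.850), probe 2471 of LOC542641 (0.849) and probe 8873 of elfa2, a further elongation factor 1-alpha gene (0.840). Closest to the second set were probe 11154 of LOC100101525 (cpi2, a cystatin, which inhibits cysteine proteases), at 0.772, and a probe of LOC542733 (sam2), at 0.713. Among all 18272 other probes, named or not, 33 reached 0.8 with the first set and 3 with the second.

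The third gene of the family with several probes is LOC100037748 (elfa2), which also had 24 one-gene probes. Their median spread was 0.92, from 0.53 to 1.46, and 7 of 24 reached 2-fold, beside 65.0% of all one-gene probes. The spread of its probe median was 0.45, and its mean pairwise r was 0.179 over 276 pairs. EF1A and elfa2 probes had a mean r of 0.132 over 576 pairs, and elfa3 and elfa2 probes 0.186 over 168 pairs. The first lay above the mean of 0.099 within EF1A but below those within elfa3 (0.158) and within elfa2. The second lay above all 3. LOC542555 (elfa5) had 1 probe, with a spread of 0.90.

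A pair of further probes is assigned by the gene table to both elfa3 and elfa2 and was left out of the members. Probe 2198 had a spread of 0.61 and probe 9399 one of 0.80. Their r with the elfa3 probe median was 0.0922 and 0.0044, and with the elfa2 probe median 0.113 and 0.553. Such shared assignments show that the table does not separate these genes at every probe, and whether each member probe hybridises to its own gene alone was not tested.

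By the likeness of per-array probe medians, over 27 arrays and 146 other genes with at least 3 probes, elfa2 came first for EF1A with r 0.733 (rho 0.720). RPL19 (LOC542284), a protein of the large ribosomal subunit, had the same r of 0.733 (rho 0.685), and LOC542441 followed with 0.702 (rho 0.642). Without the 2 arrays farthest from the EF1A median these were 0.725, 0.677 and 0.686. The median r over the 146 genes was 0.169. By this measure elfa3 was number 38.

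For elfa3 the closest gene was LOC542747 (eIF3A, a subunit of translation initiation factor 3), with r 0.679 (rho 0.649), which dropped to 0.489 without S19 and S23, the arrays where elfa3 lay farthest from its median. LOC541942 followed with 0.593 (rho 0.571, and 0.456 without those arrays). Next came elfa2 with 0.555 (rho 0.643), and here the value rose to 0.771 without them. EF1A was number 15 of 146, and the median r over genes was 0.128.

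In the order of median probe spread over the 147 genes with at least 3 probes, from the steadiest, elfa3 was number 15, elfa2 number 28 and EF1A number 69. The neighbours of elfa3 just below it were rpl17 (0.86), MNB1b (0.86) and apx2, an ascorbate peroxidase (0.86), and just above it hon101 (0.87), WRKY1 (0.87) and the profilin PRO4 (0.87). The neighbours of EF1A just below it were LOC542104 (1.11), the superoxide dismutase sod2 (1.11) and rpl39 (1.12), and just above it grp1 (1.12), the superoxide dismutase sod3 (1.13) and LOC542458 (1.14). These steps between neighbours are far smaller than the range of spreads among probes of EF1A (0.67 to 2.18) or elfa3 (0.62 to 2.33), so the exact rank carries little.

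Beside other components of translation, elfa3 was among the steadier genes and EF1A among the more variable ones. The 10 other translation factor genes in the table had 66 probes with a median spread of 0.95, and 26 of the 66 (39.4%) reached 2-fold, beside 65.0% of all one-gene probes. Of these 10 genes, 8 had a lower median spread than EF1A and 3 a lower one than elfa3. The 3 were tif-4A3 (0.82) and both genes of initiation factor 5A, tif5A (0.85) and eif5a (0.85). The 16 cytosolic ribosomal protein genes had 78 probes with a median of 0.98, of which 37 (47.4%) reached 2-fold. There 12 of 16 genes were steadier than EF1A, and 2, rpp1a and rpl17, were steadier than elfa3.

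Beside other common reference genes the order differed. The 13 tubulin and glyceraldehyde-3-phosphate dehydrogenase genes had 64 probes with a median spread of 1.21. Of these, 47 (73.4%) reached 2-fold, beside 65.0% of all one-gene probes. Only 3 of the 13 had a lower median than EF1A, namely TUA1 (0.84), gpc3 (0.99) and tua3 (1.08), and TUA1 was the single one lower than elfa3. The others ran from tua4 (1.15) to tub3 (3.88, 1 probe), with GAPC1 and GAPC2 at 1.46. No actin, ubiquitin or cyclophilin gene of the table matched the names searched.

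**Figure D5:**
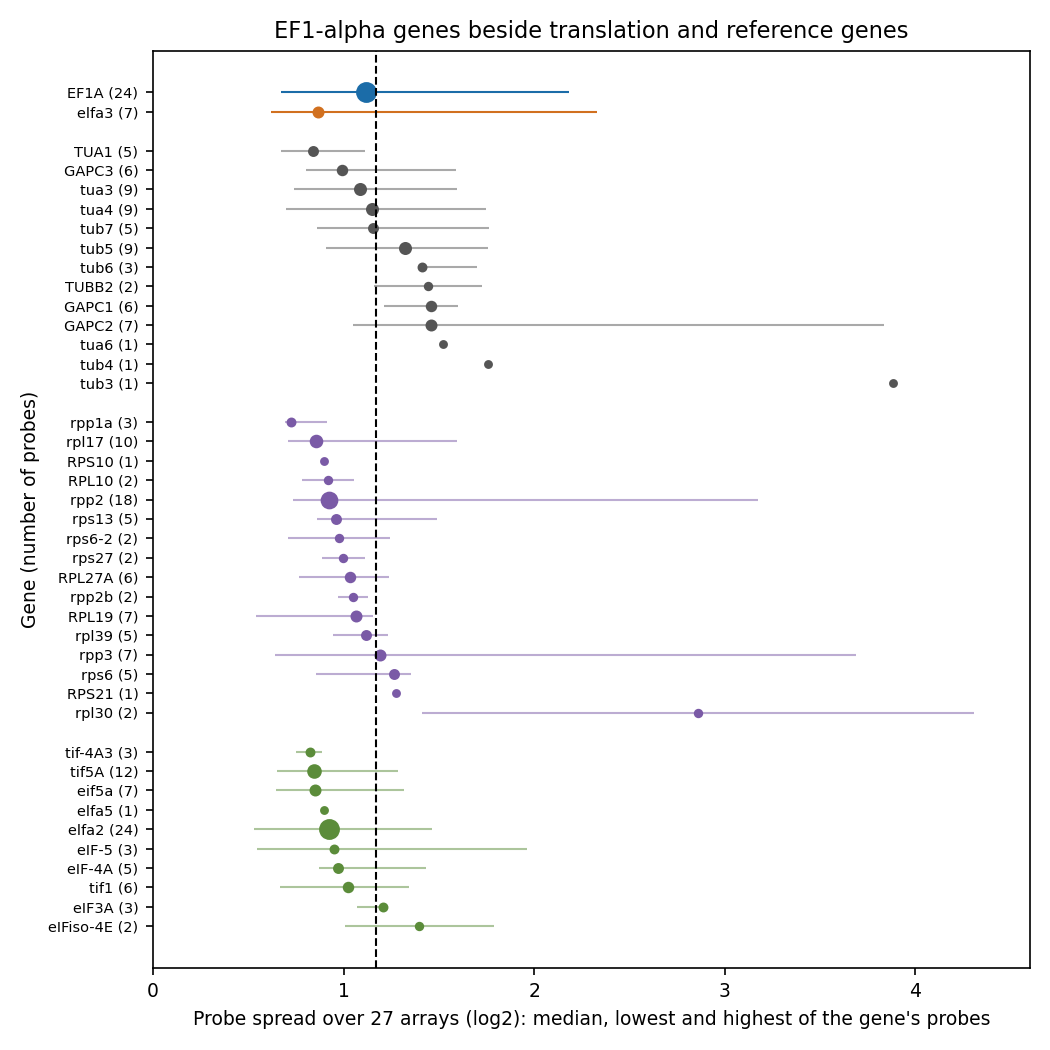
Median spread over 27 arrays (points, log2, x axis) of EF1A (blue), elfa3 (orange) and each gene of 3 lists, namely other common reference genes (grey), cytosolic ribosomal proteins (purple) and other translation factors (green). Thin lines run from the lowest to the highest probe of a gene, point size grows with the number of probes given in parentheses, and the dashed line is the median of all one-gene probes (1.17). The elfa3 point lies left of 12 of the 13 other reference genes, and the EF1A point left of 10.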

How the data were processed

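The authors deposited 1 normalized value per spot and array for 27 two-colour cDNA arrays. The deposited values were read as natural log ratios, a base inferred from distances between repeated values, which equalled 2 ln k for whole k between 2 and 10 in 106 pairs (tolerance 2e-05) against a mean of 5 at shifted distances. Distances of ln k were met in 33 pairs, against a mean of 15.5. A constant multiple is not excluded. The excess was larger at 2 ln k than at ln k. The distances thus fit values of 2 times the natural log ratio better than the reading used. Under that reading 2 of the 31 members would reach 2-fold, beside 18.5% of all one-gene probes. All folds given here rest on the reading without a multiple. How arrays were scanned and normalized is not given in the sources used here. The values were rescaled to log2 and each array was centred on its median (Python 3.11.15, numpy 2.4.6, pandas 2.3.3, scipy 1.17.1, matplotlib 3.10.9). The measures were tested on simulated data. Of 19200 spots, 897 were empty on every array. Genes were named by the platform's table with symbols from RefSeq's annotation of Zm-B73-REFERENCE-NAM-5.0, which held 515 of 532 genes, both members among them, and 23 probes with several genes were not used.

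No array has a group, so no test was run. The members and lists were chosen with earlier results of these data known. Other genes named are the 3 closest in per-array probe median, the 3 neighbours on each side in spread, 3 lists matched by symbol, and genes closest to the probe sets, the last chosen after values were seen. Alternatives covered centring, spread measure, threshold, log base, background, array sets and each array left out. Sequences of the probes, proteins and promoters were not analysed here.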

Additional observations from a re-analysis of the deposited data

How the results depend on the processing

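Of 97 alternatives other than leaving out 1 array, 69 stayed within limits set at 1.1 times for spreads and ratios, 1.5 times for counts, 5 points for percentiles and 0.1 for correlations, and 28 did not. No value changed sign. The median spread of the 31 members (1.09) was 0.941 over S1 to S15, 0.901 over S16 to S27, 0.938 with block centring, 0.490 as an interquartile range and 0.480 as a standard deviation. Its ratio to all one-gene probes (0.932) was 0.806 over S16 to S27, 0.706 against all probes and 0.687 against 1 value per gene. Its percentile (42.5) was 29.7 over S16 to S27, 36.0 by interquartile range, 26.6 among all probes 18.05 among genes and 37.01 without MNB1b in the background, the last chosen after seeing the data. The count at 2-fold (17, beside 65.0%) was 3 by interquartile range (beside 14.6%), 7 with values read as log2 (beside 32.2%) and 7 at a threshold of 1.5 (beside 29.7%). The spread of the EF1A probe median (0.515) was 0.313 over S1 to S15, 0.586 without centring, 0.275 by interquartile range and 0.219 by standard deviation. That of elfa3 (0.496) was 0.549 over S16 to S27, 0.555 with block centring, 0.655 without centring, 0.291 by interquartile range and 0.235 by standard deviation. The correlation of the gene medians (0.388) was 0.277 over S16 to S27, 0.550 with block centring and 0.608 without centring. Interquartile range and standard deviation are smaller measures by construction, and the limit of 0.1 exceeds most mean pair correlations themselves, and the cause of the other changes was not tested. Leaving out each array in turn gave 0.962 to 1.099 for the median spread, 0.822 to 0.970 for the ratio, 15 to 18 for the count, 31.7 to 46.7 for the percentile, 0.498 to 0.522 for EF1A, 0.463 to 0.501 for elfa3, 0.080 to 0.109 for pairs within EF1A, 0.114 to 0.194 within elfa3, 0.077 to 0.110 between the genes, and 0.304 (without S19) to 0.535 (without S23) for the gene medians. Leaving out probe 4473, an alternative chosen after seeing the data, kept all 10 results within limits. No paired analysis was possible because the labels place no array in a group. No intensity was used, so signal over background behind each ratio is unknown.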
